A study of Sus scrofa with 6 samples.

Results

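Of the 11375 circular RNAs (circRNAs) listed for pig brain, 638 (5.61%) were found in at least 2 of 3 domestic pig libraries and in 0 of 3 wild boar libraries. They are called pig-only circRNAs here, a name for where reads were found and not for absence from the wild boar. The rule used the deposited abundance of each circRNA in all 6 libraries, so the levels of these 638 in the 2 breeds are given as a description, with no test. The reverse class, found in at least 2 wild boar libraries and in 0 domestic pig libraries, held 160 circRNAs (1.41%).

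The study set 3 wild boars against 3 domestic pigs of the Rongchang breed from China. The labels give every animal as a female of 2 years, with no treatment and no engineered allele. Wild boar tissue was labelled brain and domestic pig tissue cerebrum, the series title names the prefrontal cortex, and the domestic pig libraries were labelled as re-analysed ones. Breed, labelled tissue and origin of the libraries therefore divided the samples in the same way and cannot be told apart. The labels do not say whether an animal gave 1 or several samples, so p-values measure the spread between these libraries, which may be partly technical.

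A circRNA is a closed loop that forms when a splice donor joins an acceptor upstream of it, a reaction called back-splicing. The loop has no free ends, which protects it from exonucleases, and brain is known for a large number of such RNAs. A gene often gives several circRNAs that share a donor or an acceptor, and flanking introns, RNA-binding proteins and the rate of transcription are known to affect which loops form. A read across the back-splice junction is the evidence for a circRNA, so the reads found depend on how many were sequenced.

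Back-splice reads differed between libraries and overlapped between the breeds. These reads, recovered from the deposited TPM (an abundance scaled by length and by library), numbered 71183, 48822 and 73089 in domestic pig 1 to 3 and 38047, 59343 and 33644 in wild boar 1 to 3. Summed circRNA TPM was 2879, 2900 and 3367 in domestic pig and 1994, 2029 and 2121 in wild boar, with no overlap. How far back-splice reads followed circRNA level or sequencing depth was not tested, and TPM is a relative scale. Where no read was found, up to 3 are allowed, which is 0.0041% to 0.0089% of a library's reads and covers counting error only. Among cell type markers, the summed TPM of 8 neuron genes ran from 1514 to 2708 in domestic pig and from 893 to 2145 in wild boar. The astrocyte, oligodendrocyte, microglia, endothelial and mural lists also overlapped between the breeds. The 4 red blood cell genes summed to 123 to 312 in domestic pig and 522 to 760.2 in wild boar. The 6 genes of regions outside the cortex summed to 21.8 to 101 in domestic pig and to at most 17.7 in wild boar. No marker was at 0 in all libraries. The last 2 lists did not overlap between the breeds, and their part in the results was not tested. In whole tissue, fewer cells of a type and less RNA per cell cannot be told apart.

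Most pig-only circRNAs were found in 2 of the 3 domestic pig libraries. The class had 225 members (35.3%) in all 3 and 413 in exactly 2, of which 196 were in pig 1 and 3, 116 in pig 2 and 3, and 101 in pig 1 and 2. Pig 1 and pig 3 held the most back-splice reads, and their pair was the most frequent of the 15 possible pairs. Pairs made of 1 domestic pig and 1 wild boar library held 19 to 135 circRNAs each, with a median of 51. Pairs of wild boar libraries held 71 (boar 1 and 2), 37 (boar 2 and 3) and 18 (boar 1 and 3).

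The 225 circRNAs in all 3 domestic pig libraries were the most numerous set among the trios. Trios that mixed the breeds held 17 to 209, with a median of 66.5, and the largest mixed trio joined pig 1 and pig 3 with boar 2, the 3 libraries with the most back-splice reads. The 3 wild boar libraries alone shared 34, which was 21.3% of the reverse class.

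**Figure D1:**
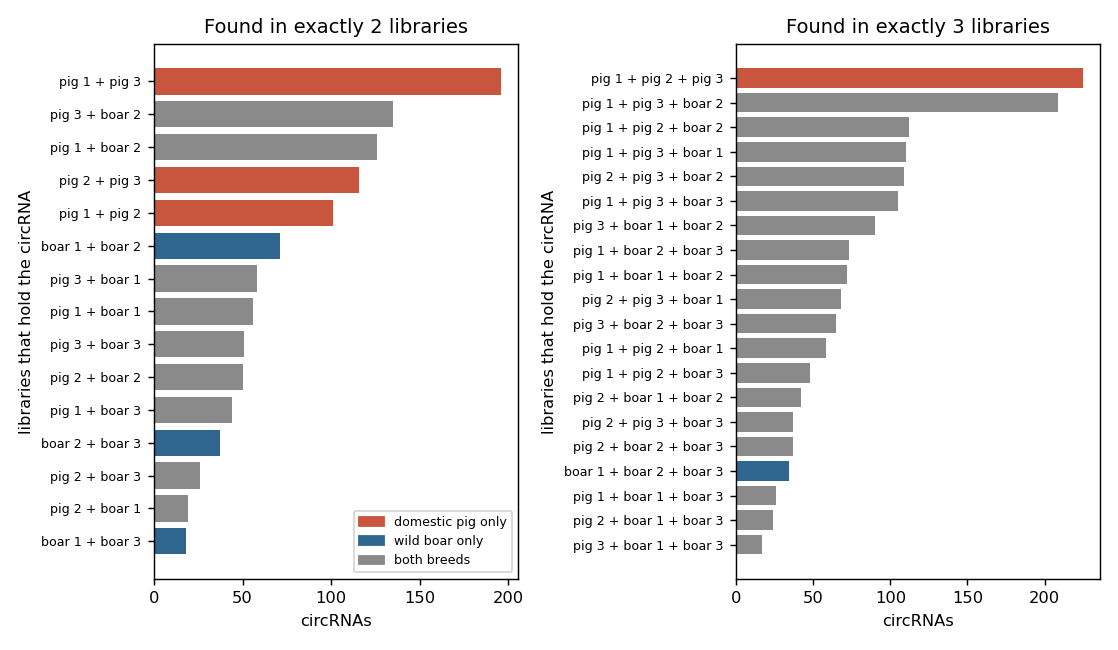
Number of circRNAs (x axis) found in exactly 2 (left) or exactly 3 (right) of the 6 libraries, for each combination of libraries (y axis). Bars of domestic pig libraries only are red, of wild boar libraries only blue and of both breeds grey; the longest red bars are 196 and 225, and the longest grey bars 135 and 209.

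The members rested on few reads. Their total over the 3 domestic pig libraries had a median of 5 and ran from 4 to 17, while the median over all circRNAs and libraries was 11 and that of circRNAs found in all 6 libraries was 33. The lowest total, 4 reads, was that of 203 members with 3 reads in 1 library and 1 in another, and 361 members had at most 5. At the upper end 32 of the 638 members had at least 10 reads, as did 8 of the 160 circRNAs of the reverse class.

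The rule's limits cut through circRNAs of much the same level. Just outside, 368 circRNAs had reads in 1 domestic pig library and none in wild boar, with a median of 3 reads. Another 761 were found in at least 2 domestic pig libraries and had exactly 1 wild boar read, with a median of 6 pig reads. A single wild boar read therefore kept more circRNAs out of the class than the class holds.

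As a share of each library, the class was small and nearly level. It took 1304 reads in pig 1 (1.83%, exact 95% binomial interval 1.73% to 1.93%), 905 in pig 2 (1.85%, 1.74% to 1.98%) and 1440 in pig 3 (1.97%, 1.87% to 2.07%). Members were chosen for reads in these same libraries, so the shares are descriptions. The intervals cover counting error only, not the choice of members or the spread between animals. Summed TPM of the members was 47.2, 46.6 and 59.2 in pig 1 to 3. The reverse class took 0.807%, 0.657% and 0.532% of the reads of boar 1 to 3. Mean domestic pig TPM of a member had a median of 0.0656 and a maximum of 0.392.

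Which of the 2 classes was the larger depended on how they were counted. The deposited table gave 3.99 pig-only circRNAs for each of the reverse class. With every library thinned to the 33644 reads of boar 3, the numbers expected from the reads were 595.6 and 387.3, a ratio of 1.54. The table also lists a circRNA only where some library reached 3 reads, as far as the recovered reads show. Domestic pig libraries alone met that limit for 4119 circRNAs and wild boar libraries alone for 1891. With that limit applied again after thinning, an alternative chosen after seeing the data, 197.6 and 226.6 were expected, a ratio of 0.872, and the reverse class became the larger. Thinning to equal back-splice reads also levels the higher circRNA sum of domestic pig. Libraries were therefore also thinned to the same TPM per read, another alternative chosen after seeing the data, which leaves 29997 to 56487 reads. There 838.5 and 201.2 were expected (ratio 4.17), and 535.6 and 109.6 with the limit applied again (ratio 4.89). With pig 1 left out the classes held 341 and 413, and with pig 3 left out 326 and 425. With pig 2 left out they held 421 and 308, and with boar 1 left out 1052 and 71. With boar 2 left out they held 1469 and 52, and with boar 3 left out 991 and 105. With a library left out, the rule asks for both remaining libraries of that breed, and the other class needs no read in those alone.

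**Figure D2:**
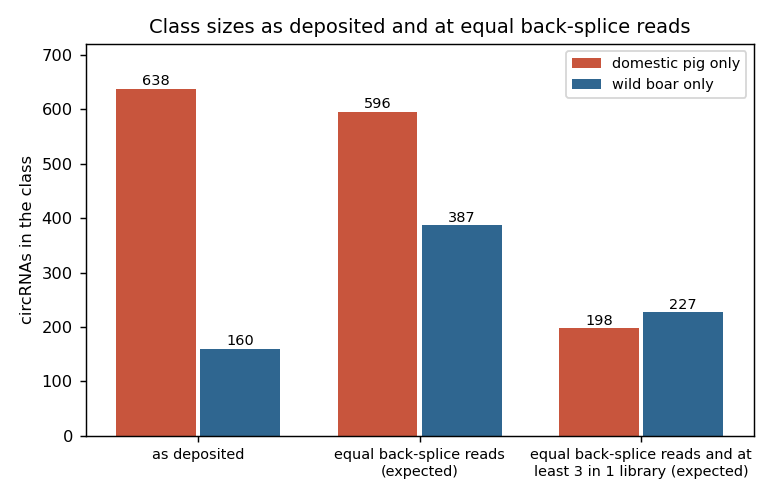
Number of circRNAs (y axis) in the pig-only class (red) and the reverse class (blue) as deposited, at equal back-splice reads, and at equal reads with the limit of 3 reads in 1 library applied again. The last 2 pairs of bars are expected numbers; the red bar is the taller in the first 2 pairs and the shorter in the last.

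The 3 most read members had 17 reads each. In GOSR1, which encodes a SNARE protein of the Golgi, the circRNA at chromosome 12, 46553280 to 46560929 (plus strand) had 5, 2 and 10 reads in pig 1 to 3. Its TPM was 0.267, 0.159 and 0.650 there, or 0.359 ± 0.258 (SD, n = 3), and it was the only circRNA listed for its gene. In TMEM62, a gene for a transmembrane protein, the circRNA at chromosome 1, 128284940 to 128300710 (minus strand) had 5, 10 and 2 reads. In UNC13C, a presynaptic protein that primes vesicles for release, the circRNA at chromosome 1, 117720154 to 117738935 (minus strand) had 3, 6 and 8 reads. Which library held the most reads differed among these 3: pig 3, pig 2 and pig 3. Against a floor of 3 reads over the 3 wild boar libraries, 17 reads made a share of back-splice reads 3.85-fold higher in domestic pig. The rule fixed the wild boar count at 0, and 17 is the highest total of the class. The ratio is therefore a description and no bound on a breed difference.

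ADCY1, an adenylyl cyclase stimulated by calcium and calmodulin, gave the member of the highest mean TPM. Its circRNA at chromosome 18, 50085986 to 50087751 (minus strand) had 9, 2 and 5 reads and a TPM of 0.586, 0.194 and 0.396, a mean of 0.392 ± 0.196 (SD, n = 3). RSU1, a protein of cell-matrix adhesions, had a member of 4, 7 and 2 reads, again the only circRNA listed for its gene. SUPT20H, a subunit of the SAGA chromatin complex, had a member of 4, 2 and 7 reads. Each of these 3 members was found in every domestic pig library.

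Of the next 6, AHI1 alone was missing from a domestic pig library. The AHI1 circRNA, from a gene of the primary cilium, had 5, 0 and 7 reads. EIF4G3, a scaffold of translation initiation, had a member of 5, 1 and 6 reads. RUFY1, a protein of early endosomes, had 2, 1 and 8 reads, so most of its reads came from pig 3. MBOAT1, an acyltransferase of phospholipids, had 2, 5 and 4 reads on the only circRNA listed for the gene. SH3YL1 (7, 2 and 3 reads) and CASC1 (5, 2 and 5 reads) complete the 12. Ties were ordered by mean TPM, and 8 further members also had 11 reads. At 12 reads the same ratio to the floor was 2.71-fold, again a description only. The 203 members with 4 reads lie below the floor once library totals are allowed for, so no fold is given for them.

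**Figure D3:**
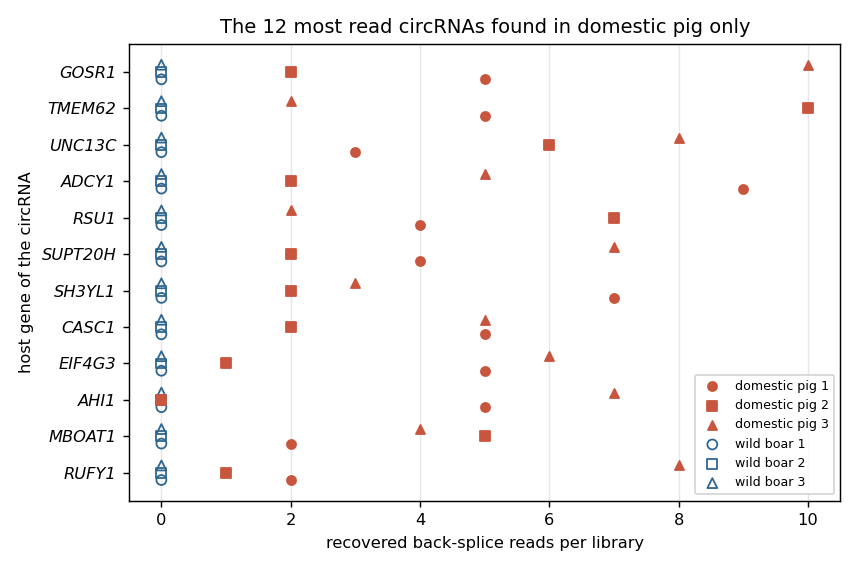
Recovered back-splice reads (x axis) in each library for the 12 pig-only circRNAs with the most reads, named by host gene (y axis). Filled red symbols are domestic pig 1 to 3 and open blue symbols wild boar 1 to 3, which the rule places at 0; reads per domestic pig library run from 0 to 10.

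Some members with fewer reads were high by TPM because they are short. ZFYVE9, which binds SMAD proteins at endosomes, had a member of 207 nt with 3, 4 and 2 reads and a TPM of 0.356 ± 0.178 (SD, n = 3). TMEM161B had the shortest circRNA of the class, 150 nt, with 2, 1 and 4 reads and 0.360 ± 0.235. MOCS2, an enzyme of molybdenum cofactor synthesis, had 2, 3 and 4 reads and 0.268 ± 0.110. PALMD had 1, 3 and 2 reads and 0.248 ± 0.164. On the TPM scale 1 read weighs more in a short circRNA, so these members lead by length as well as by reads.

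The reverse class had its own well-read members. PKD2, a cation channel of the primary cilium, gave a circRNA with 4, 13 and 3 reads in boar 1 to 3 and none in domestic pig. Against the same floor of 3 reads over the other breed, its share was 9.82-fold higher in wild boar. The rule fixed that 0 too, so this is a description. CDC14A, a phosphatase, gave one with 9, 11 and 0 reads. ERBIN, a scaffold of cell junctions, gave one with 5, 3 and 4 reads. TTC37 (5, 1 and 5) and VWA8 (1, 3 and 7) followed with 11 reads each. The PKD2 ratio was larger than that of any pig-only circRNA. The domestic pig libraries held 193094 reads in all and the wild boar libraries 131034, and both totals enter the ratio.

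Pig-only circRNAs had a longer median span than the reverse class. Span, the distance from the acceptor to the donor, had a median of 15312 bases (quartiles 6312 and 34578) in the class, 9654 (3121 and 25736) in the reverse class and 14150 over all circRNAs. CircRNAs found in 2 or 3 libraries of both breeds, which have similarly few reads, had a median of 14722. Spliced length, the length by which the authors' TPM divides, had a median of 615.5 nt in the class, 454.5 nt in the reverse class, 564 nt in the mixed set and 539 nt overall. By median span the class lay near the mixed set, and by median spliced length it lay above the mixed set and all circRNAs. The reverse class had the lowest median in both measures. These are descriptions over circRNAs of the same 6 libraries and were not tested.

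**Figure D4:**
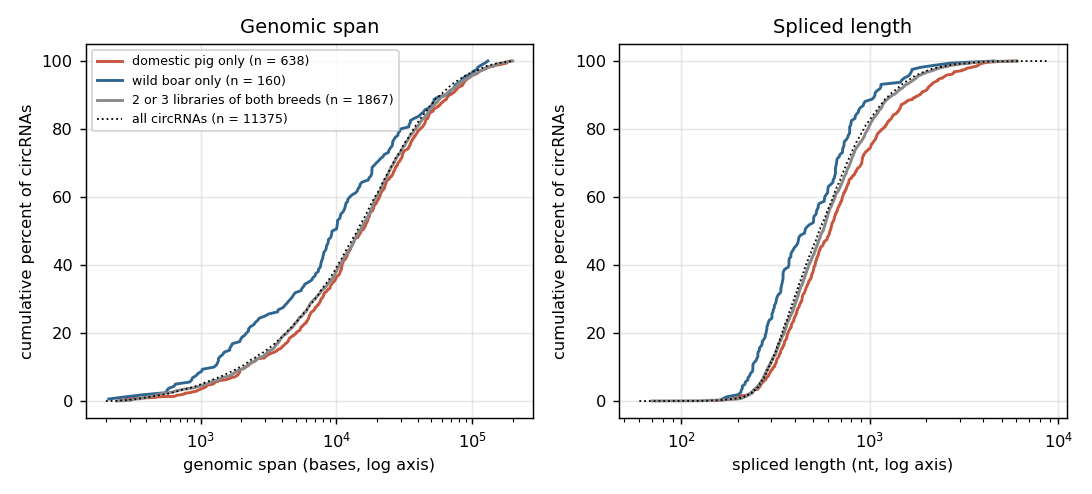
Cumulative percent of circRNAs (y axes) by genomic span in bases (left, log axis) and by spliced length in nt (right, log axis) for 4 sets: pig-only (638, red), reverse class (160, blue), 2 or 3 libraries of both breeds (1867, grey) and all circRNAs (11375, dotted). The blue curve lies to the left of the red one over most of its course, with medians of 9654 and 15312 bases.

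The longest span was 192723 bases in STAU2, a protein that binds double-stranded RNA and carries RNA along dendrites. That member had 3, 3 and 2 reads and a spliced length of 1873 nt. ATRNL1 (183004 bases) and SSBP2 (182415 bases) followed, with 4 and 5 reads. The shortest spans were in PARP1 (255 bases), a DNA damage sensor, RASGEF1B (273) and HDAC2 (283), a histone deacetylase. Spliced length equalled span in PARP1 and RASGEF1B, so no intron was removed from the lengths used there, and it was 202 nt in HDAC2. Such equality held for 12 members (1.88%), and for 2.43% of all circRNAs. Spans under 1000 bases made 3.45% of the class, 8.13% of the reverse class and 4.91% overall. Spans over 50000 bases made 14.9%, 13.8% and 12.7%.

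Most members used a splice site that another circRNA also used. Both ends were shared with another listed circRNA in 17.4% of members, 1 end in 48.4% and neither in 34.2%. Over all circRNAs these were 23.4%, 46.1% and 30.5%, and in the reverse class 13.8%, 45.0% and 41.3%. The acceptor was shared in 44.5% of members and the donor in 38.7%, and over all circRNAs in 50.3% and 42.6%. The class was spread over all 18 autosomes, from 3.83% of the circRNAs of chromosome 8 to 7.58% of those of chromosome 16. Differences in shared ends and between chromosomes were not tested.

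The 638 members came from 519 host genes, 14.8% of the 3502 genes with a listed circRNA. Hosts were assigned by position, with 635 members inside a gene, 1 partly overlapping a gene and 2 outside any. Most hosts (426) had 1 member, 72 had 2, 18 had 3 and 3 had 4. A host of a member had a median of 5 listed circRNAs, where the median over all hosts was 2. A gene with more circRNAs has more chances to hold a member, so this was not read further.

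The 3 genes with 4 members were ATRNL1, CCDC18 and C16H5orf42. In C16H5orf42, the pig counterpart of a human gene needed for cilia, 4 of 5 listed circRNAs were members, with 5 or 6 reads each. In CCDC18, a coiled-coil protein, 4 of 19 were members, and the most read of them had 2, 4 and 4 reads. The 4 ATRNL1 members had 4 or 5 reads each. Hosts with 3 members included AHCTF1 (assembly of nuclear pores), AHI1, ATM (the kinase of the DNA damage response) and DMXL2 (a protein of synaptic vesicles). The largest totals among these were 12 reads in AHI1 (5, 0 and 7) and 11 in DMXL2 (4, 6 and 1).

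By lists of host genes, members made 3.10% to 7.52% of the listed circRNAs, and 5.61% in the whole table. Presynaptic genes gave 8 members among 190 circRNAs (4.21%), each from a different gene, among them CADPS, ERC1, RIMS1, SNAP91, STXBP5 and UNC13C. Postsynaptic genes gave 3 of 94 (3.19%), in DLG1, GRIA4 and HOMER1. Ion channels gave 4 of 129 (3.10%), with 2 in RYR2 and 1 each in CACNA2D3 and KCNH1. Ubiquitin ligases and deubiquitinases gave 23 of 306 (7.52%), with 3 each in HERC1, USP25 and USP34. Chromatin regulators gave 20 of 278 (7.19%), with 3 in SMARCA5 and 2 each in ASH1L, CHD2, KDM5B and SETD2. The 3 neuronal lists lay below the whole table and the other 2 above it, with no test made.

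In 81 of the 519 hosts no circRNA of the gene had a wild boar read. Of these, 74 had a single listed circRNA, and 7 had more. In 77 hosts every listed circRNA was a member, so the rule itself fixed the 0 there. The 7 with more circRNAs were named after their values were seen: FERMT2, ETF1, FOLH1B, IQGAP1, TRA2A, CC2D2B and PDHX. Only FERMT2, FOLH1B, CC2D2B and PDHX had a circRNA outside the class, with 3 domestic pig reads in each host. FERMT2, an adaptor of integrins, had 4 circRNAs, 3 of them members with 20 reads in all. TRA2A, a splicing regulator, and ETF1, the release factor that ends translation, each had 2 members with 10 reads in all. Among the linear genes, TRA2A stood at 9.24, 6.34 and 13.0 TPM in boar 1 to 3 and 16.9, 29.2 and 24.9 in pig 1 to 3. CC2D2B was the lowest, at 0.101, 0.0400 and 0.111 TPM in boar 1 to 3 and 0.192, 0.561 and 0.442 in pig 1 to 3, and was too low to be tested. In the reverse class 29 of 151 hosts had no domestic pig read.

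Another 27 hosts gave members of both classes, which was 5.20% of the pig-only hosts and 17.9% of the 151 hosts of the reverse class. VWA8 had the most, 3 pig-only and 2 reverse among 14 circRNAs. In 5 cases a pig-only circRNA and a reverse-class circRNA shared a splice site. In EIF4G3 the pig-only loop (5, 1 and 6 pig reads; chromosome 6, 79150170 to 79180903) and a shorter one (1, 4 and 2 boar reads; 79150170 to 79157873) used the same donor. In RUFY1 the pig-only loop (2, 1 and 8) and a shorter one (0, 3 and 1 boar reads) used the same acceptor, and in SSBP2 the donor was the same (1, 3 and 1 against 1, 3 and 0). SUGCT had a pair with 1, 1 and 3 pig reads against 1, 4 and 0 boar reads. These pairs rest on 4 to 12 reads a circRNA.

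On the deposited scale the share of hosts that passed with adjustment lay near that of all genes, while their median difference was lower. Of 467 hosts in the protein-coding table, 457 were tested, and 7 passed limma with Benjamini-Hochberg adjustment at 0.05, all lower in wild boar (1.53%). At an unadjusted p under 0.05, 194 hosts passed (42.5%), and 17.8% of all genes did. Over all 11752 genes tested 1.6% passed limma with adjustment, 1.46% lower and 0.136% higher. The median log2 difference, wild boar minus domestic pig on log2(TPM + 1), was -0.73 over the hosts and -0.41 over all genes. On the same deposited scale 0.994% of the hosts of all circRNAs passed with adjustment (median -0.60), and 1.48% of the hosts of the reverse class (median -0.60). Rescaling each library by the median ratio of its genes moved the median of all genes to 0.01 and that of the hosts to -0.27. On that scale 155 hosts passed, 149 lower and 6 higher in wild boar (33.9%), where 19.5% of all genes passed, 10.7% lower and 8.88% higher. Hosts of all circRNAs passed at 22.3% and hosts of the reverse class at 21.5%, with a median of -0.15 or -0.16. The class was chosen on the same 2 breeds, so nothing is read from these shares.

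Of the 7 hosts, the 6 with the lowest p were lower in every wild boar library than in any domestic pig library. CCDC18 stood at 14.5, 19.3 and 15.8 TPM in pig 1 to 3 and 4.64, 3.25 and 5.59 in boar 1 to 3. Its log2 difference was -1.69 (SE 0.41; limma adjusted p 0.00449). HMCN1, a protein of the extracellular matrix, stood at 1.71, 3.55 and 2.04 TPM against 0.481, 0.428 and 0.731 (-1.12, SE 0.27; limma adjusted p 0.00449). HMCN1 reached the filter's TPM of 1 in the 3 domestic pig libraries only. It was thus tested only because it was high there, and its call is not read as support. With no filter its limma adjusted p was 0.128. U2SURP, a protein of the spliceosome, stood at 31.4, 49.7 and 48.6 TPM against 13.9, 8.90 and 18.6. UNC13C stood at 10.7, 18.8 and 25.5 TPM against 6.94, 3.94 and 6.71, so the gene that gave 1 of the 3 most read members was itself lower. ANGPT1 (a ligand of the TIE2 receptor) and MTF2 (a Polycomb partner) had log2 differences of -1.42 and -1.53. All 6 passed on the rescaled values too, and all 6 lost the call without wild boar 1. The 5 that could still be tested, HMCN1 aside, lost it without pig 2 or without pig 3, and 3 of 6 lost it without wild boar 2. All 6 also lost it with no filter on low values (limma adjusted p 0.0890 to 0.137) and with a replicate block (0.0721 to 0.228).

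Most members sat beside circRNAs that wild boar did show. Another circRNA of the same host, outside the class, was listed for 556 members (87.1%), and for 549 at least 1 of these had a wild boar read. In 394 members (61.8%) an acceptor or donor of the member was used by a circRNA read in wild boar, and in 92 (14.4%) both were. The member took a median of 10.5% of its host's back-splice reads in domestic pig (quartiles 4.03% and 33.3%), and over 50% in 104 members. In the reverse class 81.3% had another circRNA outside it, and the median share of the host's reads was 17.9%.

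At the ratio of wild boar to domestic pig reads of the other circRNAs of each host, the 553 members with such a ratio would have had a median of 3.41 wild boar reads each. That number was at least 3 for 337 of them, with a maximum of 45.0, and under 3 for 216. In the reverse class the median was 6.69 domestic pig reads, and 119 of 129 had at least 3. The observed number is 0 by the rule, so this is a description and not a test.

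SUPT20H shows how a missing loop can lie between read ones. Its member, chromosome 11, 12843297 to 12862293, shares its donor with a loop of 11, 19 and 14 reads in pig 1 to 3 and 6, 12 and 4 in boar 1 to 3. It shares its acceptor with a loop of 2, 4 and 13 reads against 9, 9 and 14. Both splice sites were thus used in every library, and the loop that joins the far ends was read in domestic pig only. In UNC13C a loop of 3240 nt from the same donor, whose span equals its length, had 4, 7 and 5 pig reads against 0, 0 and 4. In AHI1 the acceptor was shared with a loop of 15, 9 and 28 pig reads against 15, 21 and 6. The ADCY1 donor was shared with a loop of 3, 1 and 3 pig reads against 2, 6 and 4. For the 16 members named by reads or TPM, the most abundant other circRNA of the host and those sharing an end were examined, 30 in all, 4 of them in the class or the reverse class. Of the rest 25 could be tested, and 0 passed limma, with a lowest adjusted p of 0.104 and 2 at an unadjusted p under 0.05. Over all circRNAs tested, 14.5% had an unadjusted limma p under 0.05.

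As a set, the other circRNAs of the hosts took a near equal share of reads in both breeds. They numbered 2663 and took 26.0%, 26.0% and 26.7% of the reads of pig 1 to 3 and 25.8%, 24.5% and 26.1% of those of boar 1 to 3. Over 442 hosts they held 50771 domestic pig and 33328 wild boar reads, a ratio of 0.656, where the library totals gave 0.679. Of 2389 tested, 3 passed limma, all lower in wild boar (0.126%), and 0.134% of all 9709 circRNAs tested passed. After rescaling 1 passed, and 0.0206% of all. Their median log2 difference on log2(TPM + 0.045) was -0.46, and over all circRNAs tested -0.45.

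**Figure D5:**
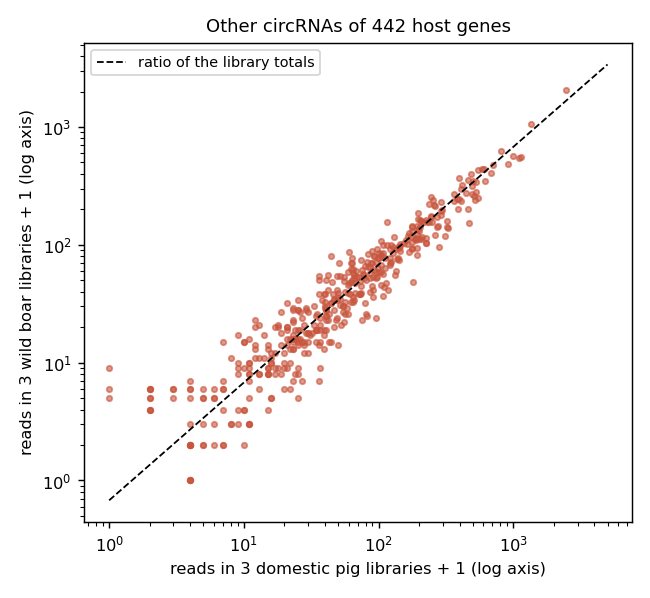
Back-splice reads plus 1 of the other circRNAs of each host gene, outside the class, summed over 3 domestic pig libraries (x axis, log) and 3 wild boar libraries (y axis, log), 1 point for each of 442 hosts. The dashed line is the ratio of the library totals, 0.679, and the points lie on both sides of it.

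The 3 that passed were in PCNX2, SEPT7 and DENND1B. The SEPT7 circRNA, from a septin of the cytoskeleton (chromosome 18, 38110775 to 38132080, minus strand), had 73, 40 and 44 reads in pig 1 to 3 and 11, 18 and 5 in boar 1 to 3. Its TPM was 3.07, 2.51 and 2.25 against 0.594, 0.602 and 0.331, with no overlap (log2 difference -2.29, SE 0.36; limma adjusted p 0.0346). The DENND1B circRNA, from a regulator of RAB35 in endocytosis, had 151, 118 and 182 reads against 41, 102 and 48 (-1.38, SE 0.26; limma adjusted p 0.0475). After rescaling neither passed (limma adjusted p 0.231 and 0.323), and SEPT7 also lost its call without pig 1 (0.107) or boar 3 (0.0657). DENND1B lost its call with any library left out except pig 2 (0.0756 to 0.115). The PCNX2 circRNA (23, 10 and 23 reads against 0, 1 and 0) missed the class by that 1 wild boar read and passed under both scalings. It met the filter of 3 libraries through the domestic pig libraries alone, where it was high, so its call is not read as support. With no filter its limma adjusted p was 0.00832.

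Of 30 genes of circRNA formation and turnover, 12 had a listed circRNA, 31 in all, and 0 of these were members, where 5.61% of the whole table were. Of the 30, 25 were tested, and 0 passed limma on the deposited scale, where 1.6% of all genes did. At an unadjusted p under 0.05, 3 of the 25 passed limma, and 17.8% of all genes did. The median log2 difference was -0.47 over the list and -0.41 over all genes. On the rescaled values 8.88% of all genes passed higher in wild boar and 10.7% lower. Of the 25, 2 were higher in wild boar on that scale, the editing enzyme ADARB1 (0.50) and the splicing factor NOVA2 (0.74). There 2 were lower, TNRC6A (-0.78), a scaffold of microRNA silencing, and XRN2 (-0.42), an exonuclease, and the median was -0.01. ADAR, DHX9, QKI and the other 18 did not pass on either scale, which does not show that they were equal. ADAR stood at -0.25 on the deposited and 0.21 on the rescaled scale.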

How the data were processed

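Per the labels' protocols, total RNA of 6 brain samples was depleted of ribosomal RNA and made into stranded libraries. Per the submitters' processing notes, the tools included BWA 0.7.17 and STAR 2.6.0c, with no roles stated. Genome build, annotation and circRNA caller are not given in the sources used here. Values deposited by the authors are TPM for 21280 protein-coding genes and 11375 circRNAs, and 0 further per-sample columns went unused. Deposited gene TPM summed to 17.2% to 40.9% of 1000000 per library, so other transcripts share the scale.

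Back-splice reads and lengths were recovered as the smallest whole numbers giving the deposited circRNA TPM, with at least 3 reads in 1 library (all 11375 whole within 1e-05; 316 raised to reach 3, of which 27 were pig-only). Numbers may be multiples of these. The recovery was exact for 97.94% of 2230 simulated circRNAs. Positions count from 1. Hosts come from gene spans of RefSeq Sscrofa11.1, without strand: 99.31% of circRNAs lay inside a gene, and 47.24% after a shift of 1000000 bases; 48 had several candidate hosts, 0 of them pig-only.

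Breeds were compared with limma 3.58.1 (R 4.3.3, trend, two-sided, Benjamini-Hochberg, threshold 0.05) on log2(TPM + 1) for genes at TPM of at least 1 in 3 libraries and on log2(TPM + 0.045) for circRNAs above 0 in 3 libraries; these scales understate changes of low values. On simulated data 86% of changes of 2 log2 units were recovered with 11752 genes in the fit and 39% with 9709 circRNAs. Recovery among genes or circRNAs of low level was not tested, and these percentages do not cover them. Python 3.11.15, scipy 1.17.1 and pandas 2.3.3 gave counts, intervals and expected numbers. Alternatives were another pseudocount, no filter, median-ratio rescaling, a replicate block, each library left out, stricter and looser rules for the class, and thinning to equal back-splice reads or to equal TPM per read. Members, lists and rules were chosen with earlier results of these data known. Members named were the 12 with most reads (ties by mean TPM), the 8 of highest mean TPM in all 3 domestic pig libraries, the members of the 8 hosts with most members (some items are not reported here), the 3 longest and 3 shortest, 5 of the reverse class, up to 6 called hosts per direction, up to 8 called circRNAs of the hosts, and those sharing an end with, or most abundant beside, a named member. No circRNA sequence was used here.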

Additional observations from a re-analysis of the deposited data

How the results depend on the processing

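The class of 638 became 225 when all 3 libraries were required and 1399 when 1 wild boar read was allowed. Equal back-splice reads gave 595.6, or 197.6 with the limit of 3 reads applied again, and leaving out a library gave 326 to 1469. The reverse class of 160 became 34, 406, 387.3 and 226.6 under the same settings. At equal TPM per read the classes were 838.5 and 201.2, or 535.6 and 109.6 with the limit. The reverse class was 97 at 5 or more reads, and 52 to 425 with a library left out. The 7 hosts called became 0 without a filter, 155 after rescaling, 0 with a replicate block, and 0 to 39 with a library left out. They were 0 by limma without pig 2, pig 3 or boar 1 (42, 65 and 81 at an unadjusted p under 0.05; 193 without a filter, 120 with the block), 3 without boar 2, 23 without boar 3, and 39 without pig 1. The 3 other circRNAs called became 8 at a pseudocount of 0.1, 1 after rescaling, 5 with the replicate block, and 1 to 8 with a library left out. Same-numbered libraries gave r of 0.10, -0.04 and -0.01 over genes, and differently numbered ones -0.22 to 0.19. With 3 libraries per breed these values cannot show whether the numbers pair the animals. For these counts the cause was not tested, beyond the fewer samples or changed limits that the settings set. The 6 called host genes and 3 called circRNAs named did not change sign under these alternatives. Named genes that were not called could change sign on rescaling, as ADCY1, RSU1, KCNH1, SNAP91 and ADAR did. Members have 4 to 17 reads, which limits the precision of each.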
